A study of Mus musculus with 11 samples.

Results

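The 10 genes described here encode enzymes and core partners of DNA methylation and of Polycomb repression. They were taken from the deposited table by gene name, as *Dnmt1*, *Uhrf1*, *Dnmt3a*, *Dnmt3b*, *Tet1*, *Tet2*, *Tet3*, *Ezh2*, *Ezh1* and *Suz12*, and are 10 of the 24849 genes that the table held after entries of the same name were summed. Each of the 10 had a single entry in the table. The rule uses names alone, and it was set with earlier results of these data known.

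The libraries were made from polyadenylated RNA of AML12, a line of mouse hepatocytes established from a mouse carrying a human TGF-alpha transgene. Of the 11 libraries, 4 came from KO cells (numbered 5, 6, 7 and 8), 3 from WT cells (5-6, 7 and 8) and 4 from KI cells (5, 6, 7 and 8). The label of the KO genotype reads TXNDC5 Knockdown, whereas the methods of the study describe a CRISPR/Cas9 edit with a puromycin cassette and stable selected clones, whose number is not stated. The KI genotype is labelled TXNDC5 Knockin, which the design text describes as overexpression from the ROSA26 locus. TXNDC5 is a protein disulfide isomerase of the endoplasmic reticulum. No treatment, time point or batch was given by the labels, and nothing in them states that the libraries of a group came from separate cultures, so the p-values measure the spread between these libraries only.

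In mammalian cells, DNMT1 copies CpG methylation to the new DNA strand after replication, and UHRF1 brings it to hemimethylated CpG sites. DNMT3A and DNMT3B methylate DNA that carries no methyl group, and the TET enzymes oxidise 5-methylcytosine and so start its removal. Polycomb repressive complex 2 (PRC2) methylates lysine 27 of histone H3, with EZH2 or EZH1 as its catalytic subunit and SUZ12 as its scaffold. In liver, EZH1 prevails in quiescent hepatocytes, whereas EZH2, DNMT1 and UHRF1 are known to be more abundant in dividing cells.

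Levels are given as CPM, read counts relative to the library total, scaled between libraries with TMM factors, which assume that most genes do not differ. Fold changes and adjusted p-values came from the edgeR quasi-likelihood test with Benjamini-Hochberg adjustment over all genes tested, and a gene was called higher or lower when its adjusted p was under 0.05. The total counts of the libraries ranged from 29840366 to 38422243. WT libraries held 18.8 to 25.3% of their counts in newly assembled, unannotated entries, against 11.9 to 13.4% in KO and 9.65 to 16.4% in KI. Without scaling factors, the median over all genes tested shifted on the log2 scale from -0.03 to 0.38 in KO against WT, from -0.02 to 0.31 in KI against WT and from 0.00 to 0.06 in KO against KI. The share of calls that were higher moved with it, from 48.5 to 72.8% in KO against WT and from 50.2 to 76.3% in KI against WT. Directions below are therefore relative to the bulk of genes. In bulk RNA, fewer cells of a kind and less RNA per cell cannot be told apart.

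*Txndc5* followed the KO label and was measured first as a check. It stood at 8.499 to 12.9 CPM in the KO libraries, 138 to 147 CPM in WT and 158 to 180 CPM in KI. The level was 14.1-fold lower in KO than in WT (log2 fold change -3.82, SE 0.15, adjusted p = 4.09e-08). In KI it was 1.18-fold that of WT (log2 0.24, SE 0.12, adjusted p = 0.136), a difference that did not pass the test although the 2 ranges did not overlap. Scaled by library totals alone the same comparison gave a log2 fold change of 0.57 with an adjusted p of 0.00623. The KI libraries are therefore called here by their label.

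In KO against WT, 9 of the 10 members had enough counts to be tested. *Uhrf1*, *Dnmt1* and *Ezh2* were higher and *Suz12* and *Dnmt3a* were lower, which makes 5 of 9 called where 55.1% of the 13359 genes tested were called. Higher calls made up 26.7% of all genes tested and lower calls 28.4%. The groups did not overlap for 5 of the 9 members, against 55.3% of all genes. In KI against WT, all 10 members were tested and 4 were called, namely *Dnmt1*, *Uhrf1*, *Ezh2* and *Tet1*, each higher, where 42.3% of the 13534 genes tested were called, 21.2% higher and 21% lower. The groups did not overlap for 5 of 10 members in that comparison, against 44.7% of all genes. In KO against KI, 5 of 10 were called (*Uhrf1* higher and *Suz12*, *Dnmt3a*, *Ezh2* and *Tet1* lower) where 54% of 13269 genes were called, 27% in each direction. There, 4 of 10 members did not overlap between the groups, against 48.6% of all genes. The numbers of members called thus lay near the share of all genes called, and the results below concern the individual genes. *Tet1* passed the filter on low counts through the KI libraries alone, so it could only be called higher in KI, and it adds nothing to these counts. Of the other 9 members, 3 were called in KI against WT and 4 in KO against KI. KO against WT and KI against WT share the 3 WT libraries.

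**Figure D1:**
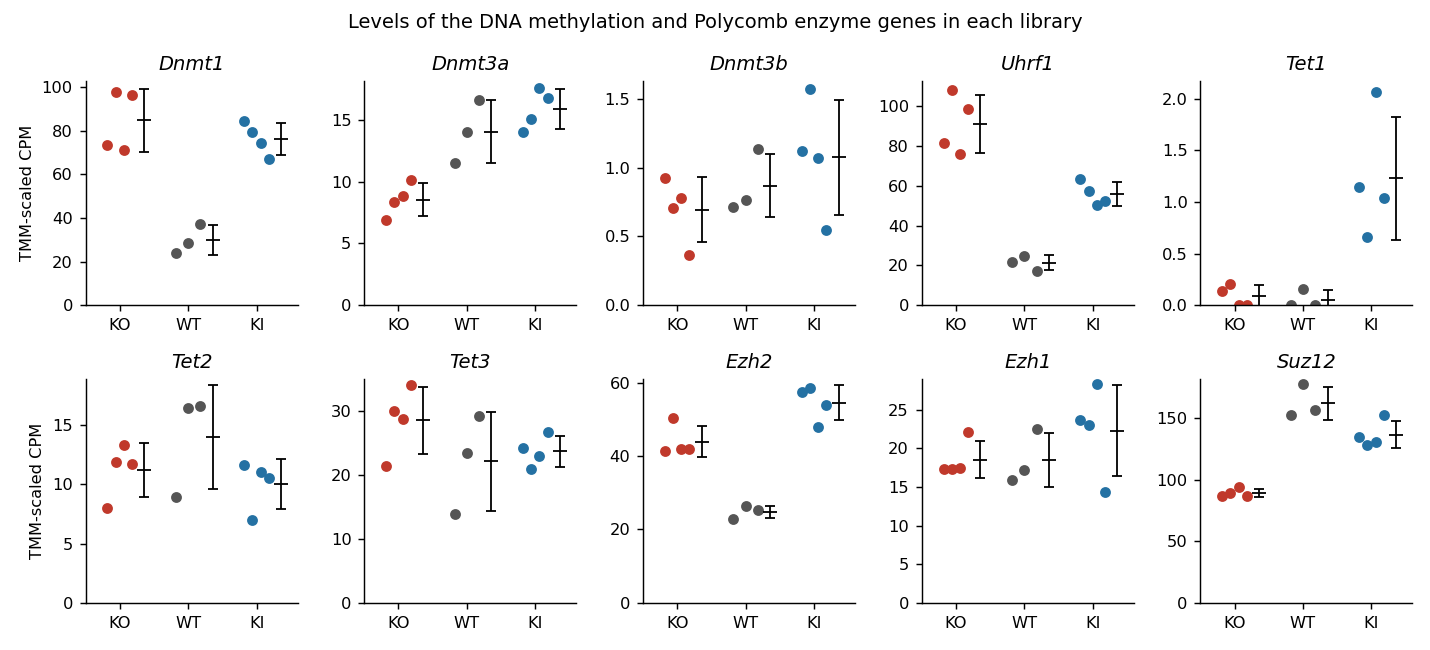
Level of each member in each library, in TMM-scaled CPM on a linear axis from 0, with the mean and SD beside the points of KO (n = 4), WT (n = 3) and KI (n = 4); the SD bar of Tet1 is cut at 0. The WT points of Dnmt1, Uhrf1 and Ezh2 lie below all KO and KI points, the KO points of Suz12 and Dnmt3a lie below all others, and Tet1 exceeds 0.6 CPM in the KI libraries alone.

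The promoters of the 5 members called in KO against WT are shown because these genes moved in opposite directions. RefSeq promoter windows (GRCm38.p6, 250 bases before to 50 after an annotated start) were found for all 10 members, 15 windows in all. The 160 bases before 1 start of each gene, that of its window with the most CpG sites, are printed 5′ to 3′ on the strand of the gene. Capitals mark the letters CCAAT, which NF-Y can bind, and GGGCGG, the GC box of Sp1, each on either strand.
Dnmt1, chr9:20952624-20952783, minus strand: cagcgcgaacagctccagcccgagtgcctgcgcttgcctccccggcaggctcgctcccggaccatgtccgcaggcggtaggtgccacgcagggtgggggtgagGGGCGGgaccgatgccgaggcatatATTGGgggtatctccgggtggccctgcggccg
Uhrf1, chr17:56304153-56304312, plus strand: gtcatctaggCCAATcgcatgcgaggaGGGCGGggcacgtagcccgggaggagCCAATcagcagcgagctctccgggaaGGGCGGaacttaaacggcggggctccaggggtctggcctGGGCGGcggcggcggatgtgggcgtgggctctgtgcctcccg
Ezh2, chr6:47595031-47595190, minus strand: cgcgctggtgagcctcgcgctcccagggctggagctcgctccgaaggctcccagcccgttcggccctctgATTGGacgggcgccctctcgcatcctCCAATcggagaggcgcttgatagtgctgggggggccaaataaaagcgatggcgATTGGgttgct
Suz12, chr11:79992946-79993105, plus strand: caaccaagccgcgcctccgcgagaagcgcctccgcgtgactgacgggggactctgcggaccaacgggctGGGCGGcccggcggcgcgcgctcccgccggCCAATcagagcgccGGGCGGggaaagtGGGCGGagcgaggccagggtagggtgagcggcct
Dnmt3a, chr12:3807000-3807159, plus strand: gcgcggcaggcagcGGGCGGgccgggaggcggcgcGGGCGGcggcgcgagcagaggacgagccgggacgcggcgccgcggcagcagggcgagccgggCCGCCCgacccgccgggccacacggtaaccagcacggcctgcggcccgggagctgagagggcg

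The windows shown were picked by their number of CpG sites, so the CpG content of these stretches is no result. The other *Dnmt1* windows held 12 and 2 CpG sites against 33 in the one shown. The other *Uhrf1* window held 12 against 33. The 15 member windows held a median of 30 CpG sites, against 7 over all 32851 windows of the table. GGGCGG was present in 73.3% of the member windows and in 35.7% of all windows, and CCAAT in 46.7% and 37.4%. The *Dnmt3a* stretch shown holds GC boxes but no CCAAT, and the *Ezh2* stretch holds CCAAT but no GC box.

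The letters TTTCCCGC and TTTGGCGC, forms of the site of E2F, the factor family that drives genes of S phase, were searched on both strands and were found in 20% of member windows and 1.56% of all windows. These matches belonged to *Dnmt1*, *Ezh2* and *Suz12*, that is, to genes called higher and to a gene called lower, and 30 bases around each are printed with the match in capitals.
Dnmt1, chr9:20952574-20952603, minus strand: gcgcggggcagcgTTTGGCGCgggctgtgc
Ezh2, chr6:47595009-47595038, minus strand: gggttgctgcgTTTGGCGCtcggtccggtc
Suz12, chr11:79992876-79992905, plus strand: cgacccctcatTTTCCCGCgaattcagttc
Neither *Uhrf1* window held these letters. A match describes the sequence only and was not tested as a binding site. The median GC content was 69.7% in the member windows and 52.7% over all windows. No background of like base composition was used. The higher shares of these letters and of GGGCGG are therefore not read as a trait of the members.

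*Uhrf1*, the reader of hemimethylated DNA, showed the largest fold difference between KO and WT of the 9 members tested. Its level was 81.8, 108, 76.2 and 98.5 CPM in KO libraries 5 to 8, 21.9, 24.7 and 17.3 CPM in WT libraries 5-6, 7 and 8, and 63.4, 57.4, 50.2 and 52.6 CPM in KI libraries 5 to 8. The 3 groups did not overlap, with WT lowest, KI between and KO highest. It was 4.22-fold higher in KO than in WT (log2 2.08, SE 0.18, adjusted p = 5.31e-06) and 2.62-fold higher in KI than in WT (log2 1.39, SE 0.16, adjusted p = 3.91e-05). KO also exceeded KI, by 1.64-fold (log2 0.71, SE 0.12, adjusted p = 0.000115). These calls held without any single library and under the 11 other settings tried in each comparison.

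*Dnmt1*, the maintenance methyltransferase, was higher in both edited lines. The KO libraries had 73.5, 97.5, 71.2 and 96.3 CPM, the WT libraries 23.98, 28.4 and 37.1 CPM, and the KI libraries 84.3, 79.5, 74.3 and 67.1 CPM. WT lay below both other groups, and the KO and KI libraries overlapped. The gene was 2.80-fold higher in KO than in WT (log2 1.48, SE 0.18, adjusted p = 6.71e-05) and 2.55-fold higher in KI than in WT (log2 1.35, SE 0.17, adjusted p = 5.81e-05). KO and KI differed by 0.15 on the log2 scale (SE 0.12, adjusted p = 0.283), which did not pass the test.

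The quotient of *Dnmt1* to *Uhrf1* counts within a library does not depend on the scaling between libraries. It was 0.90, 0.90, 0.93 and 0.98 in the KO libraries, 1.33, 1.39, 1.48 and 1.27 in the KI libraries, and 1.10, 1.15 and 2.14 in WT. The KO values lay below all others, and WT library 8 stood above all others. Between KO and KI the mean log2 quotient differed by -0.56 (exact permutation test, two-sided, p = 0.029, the smallest that 4 against 4 libraries allow, and 0.114 after adjustment over the 12 quotient tests). Against WT, KO differed by -0.585 (exact permutation p = 0.057, the smallest that 4 against 3 allow, adjusted 0.114). None of the 12 tests passed after adjustment.

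Counts of called genes in the lists that follow are to be read against the 55.1% (KO against WT), 42.3% (KI against WT) and 54% (KO against KI) of all genes that were called. Cofactors of DNA methylation and related genes, not only those of its maintenance, were taken from a list of 14 genes, of which 12 were tested. In KO against WT, 6 were higher, 1 was lower and 5 were not called, with a median log2 fold change of 0.34 (all genes -0.03). In KI against WT the counts were also 6, 1 and 5, with a median of 0.43 (all genes -0.02), and they fell to 4 called without WT library 7 and without KI library 6. *Cdca7*, the partner of the remodeller HELLS, stood at 18.7 ± 3.06 CPM in KO (SD, n = 4), 2.72 ± 0.88 CPM in WT (SD, n = 3) and 15.4 ± 1.35 CPM in KI (SD, n = 4). Its log2 fold change was 2.77 in KO (SE 0.24, adjusted p = 6.36e-06) and 2.51 in KI (SE 0.23, adjusted p = 6.22e-06). *Hells*, which opens heterochromatin to methylation, had log2 fold changes of 1.28 in KO (adjusted p = 7.67e-05) and 1.83 in KI (adjusted p = 6.99e-06), and was lower in KO than in KI (log2 -0.52, adjusted p = 0.000262). *Trim28*, a corepressor that recruits SETDB1, rose by 1.22 in KO and 0.86 in KI (adjusted p = 9.46e-05 and 0.00109). *Cxxc5*, a CpG-binding protein, was the one lower call in KO (log2 -1.07, adjusted p = 2.60e-05), and *Uhrf2*, the paralog of *Uhrf1*, was the one lower call in KI (log2 -0.34, adjusted p = 0.0404). In KO against KI, 3 of the 12 were higher and 4 lower.

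*Ezh2*, the PRC2 catalytic subunit of dividing cells, was also higher in both edited lines. Its level was 41.5, 50.2, 41.8 and 41.9 CPM in KO, 22.8, 26.3 and 25.2 CPM in WT and 57.5, 58.5, 48.0 and 54.0 CPM in KI. WT lay below both groups, while KO library 6 overlapped the lowest KI library. It was 1.75-fold higher in KO than in WT (log2 0.80, SE 0.13, adjusted p = 0.000446) and 2.20-fold higher in KI than in WT (log2 1.14, SE 0.14, adjusted p = 5.70e-05). KO was lower than KI, by 1.24-fold (log2 -0.31, SE 0.10, adjusted p = 0.0151), and that call was lost with library totals as the scaling (log2 -0.24, adjusted p = 0.0536).

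*Ezh1*, the other catalytic subunit, had 17.4, 17.4, 17.4 and 22.1 CPM in KO, 15.9, 17.2 and 22.5 CPM in WT and 23.7, 23.0, 28.3 and 14.3 CPM in KI. The 3 groups overlapped. Its log2 fold change was -0.02 in KO against WT (SE 0.16, adjusted p = 0.933), 0.27 in KI against WT (SE 0.22, adjusted p = 0.340) and -0.26 in KO against KI (SE 0.17, adjusted p = 0.208). Without KI library 8, the KO to KI difference became -0.43 (adjusted p = 0.00973). The quotient of *Ezh2* to *Ezh1* counts ran from 1.90 to 2.89 in KO, from 1.12 to 1.52 in WT and from 1.69 to 3.77 in KI, so that no WT library reached a KO or KI library. It was 1.76-fold higher in KO than in WT and 1.86-fold higher in KI than in WT (exact permutation p = 0.057 for each, the smallest possible, adjusted 0.114).

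*Suz12*, the PRC2 scaffold, moved the other way. It stood at 87.1, 89.0, 94.5 and 86.7 CPM in KO, 153, 178 and 157 CPM in WT and 135, 129, 131 and 152 CPM in KI. The groups did not overlap, with KO lowest and KI between, and the highest KI library lay just below the lowest WT library. It was 1.84-fold lower in KO than in WT (log2 -0.88, SE 0.11, adjusted p = 8.67e-05) and 1.53-fold lower in KO than in KI (log2 -0.61, SE 0.08, adjusted p = 2.01e-05). Under every alternative these 2 calls remained. KI against WT gave a log2 fold change of -0.25 (SE 0.13, adjusted p = 0.145), which did not pass the test and took the other sign with library totals (0.08). Exons of *Suz12* and of *Ezh2* overlap those of a noncoding gene on the opposite strand by 178 and 92 bases, and whether the counting used strand was not stated.

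**Figure D2:**
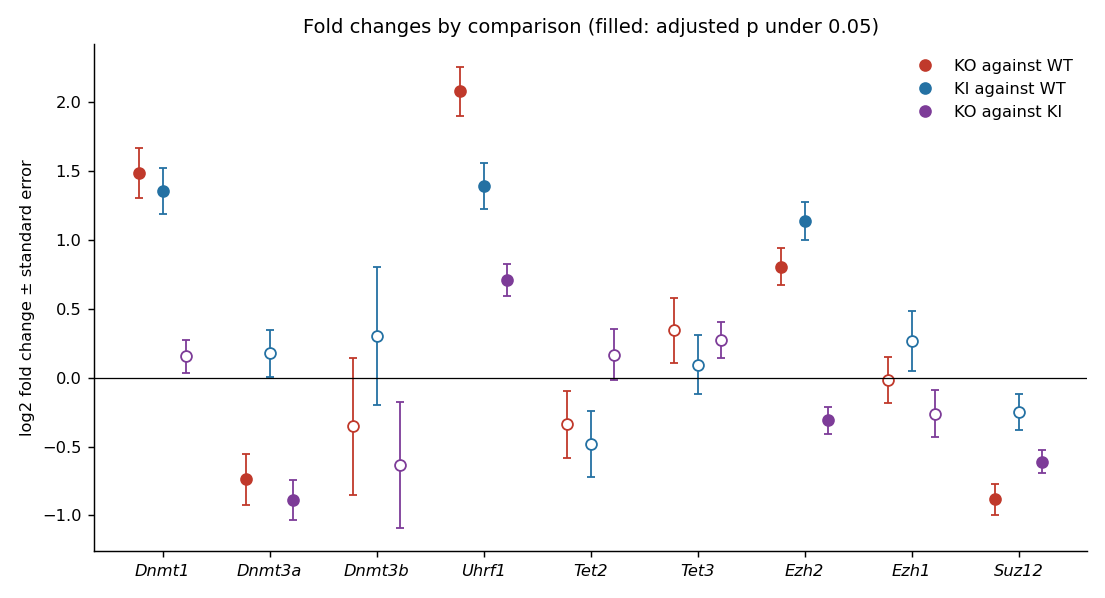
Log2 fold change with standard error of the 9 members tested in each of the 3 comparisons (KO against WT, KI against WT, KO against KI); filled points had an adjusted p under 0.05. Dnmt1, Uhrf1 and Ezh2 lie above 0 in both comparisons with WT, whereas Suz12 and Dnmt3a have filled points below 0 only in the comparisons that involve KO.

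Of the other 12 core and accessory PRC2 genes listed, 11 were tested. In KO against WT, 2 were higher and 3 lower (median log2 -0.03), in KI against WT, 2 were higher and 2 lower (median -0.06), and in KO against KI, 2 were higher and 5 lower. The KO count of 5 fell to 3 without KO library 7 or WT library 7 and rose to 8 with the length trend removed, and the KI count of 4 fell to 2 without WT library 7. *Lcorl*, an accessory subunit of PRC2.1, was lower in both lines, with log2 fold changes of -1.42 in KO (SE 0.16, adjusted p = 3.12e-05) and -0.91 in KI (SE 0.18, adjusted p = 0.00140). Its relative *Lcor* was lower as well (log2 -0.62 and -0.66, adjusted p = 0.0211 and 0.0111). *Epop*, also of PRC2.1, had 0 to 10 counts in the KO libraries and 21 to 43 in WT (adjusted p = 0.00265). In KO against WT it passed the filter on low counts through WT alone, so it could only be called lower. Its p-value is therefore a description only, and the gene adds nothing to the count of lower calls. As 10 of the 12 KO reads were in KO library 8, no fold is given. *Rbbp7*, a histone-binding subunit, was higher in KI than in WT (log2 0.66, adjusted p = 0.00352) and not called in KO (log2 0.08, adjusted p = 0.598). *Phf1*, a reader subunit, was higher in KO (log2 0.74, adjusted p = 0.00179), and *Aebp2*, of PRC2.2, was higher in KO and KI (log2 0.44 and 0.56, adjusted p = 0.0301 and 0.0145). *Eed*, a core subunit, was not called in KO against WT (log2 0.35, adjusted p = 0.0725), although its KO libraries lay above all WT libraries.

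Of 21 genes of Polycomb repressive complex 1, which ubiquitinates histone H2A, 20 were tested. In KO against WT, 3 were higher and 6 lower (median log2 -0.10), in KI against WT, 2 were higher and 4 lower (median -0.13), and in KO against KI, 4 moved each way. The 9, 6 and 8 of 20 called lay below the shares of all genes called. *Rnf2*, the main E3 ligase of the complex, had 49.2 ± 6.01 CPM in KO (SD, n = 4), 137 ± 30.1 CPM in WT (SD, n = 3) and 60.0 ± 10.5 CPM in KI (SD, n = 4). It was lower in KO (log2 -1.499) and in KI (log2 -1.19) than in WT (SE 0.17 and 0.18, adjusted p = 3.07e-05 and 0.000222). *Pcgf5* and *Rybp*, subunits of variant complexes, were lower too, with log2 fold changes of -0.95 and -0.73 in KO and -0.45 and -0.93 in KI. The chromodomain subunits differed in direction, since *Cbx7* was lower in KO (log2 -1.03, adjusted p = 0.00370) and *Cbx2* was higher in KO and KI (log2 0.60 and 0.89). Of 15 genes that oppose Polycomb, 14 were tested, and 3 were higher and 0 lower in both comparisons with WT by edgeR. At an unadjusted p under 0.05, and by DESeq2 or limma, 0 were lower as well. The 3 were *Kmt2b*, a methyltransferase of histone H3 lysine 4 (log2 1.12 in KO and 0.52 in KI), and *Nsd1* and *Nsd2*, which methylate lysine 36 (log2 0.62 and 0.60 in KO, 0.57 and 0.90 in KI). With library totals as the scaling, 7 were called in KO and 5 in KI, the KO count was 7 with the replicate block and 5 with the length trend removed. Without WT library 8, 7 were also called in KO and 5 in KI, and without WT library 5-6, WT library 7 or KI library 7 the KI count was 1. In KO against KI, 4 were higher and 1 lower, and the total of 5 fell to 3 without KO library 6, KO library 8 or KI library 6, in 1 fit over the 3 groups and with the replicate block, and to 2 with a GC trend removed.

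*Dnmt3a*, a de novo methyltransferase, was lower in KO. It had 6.87, 8.32, 8.88 and 10.1 CPM in KO, 11.5, 14.0 and 16.6 CPM in WT and 14.0, 15.1, 17.6 and 16.8 CPM in KI. The KO libraries lay below all others, and WT and KI overlapped. KO was 1.67-fold lower than WT (log2 -0.74, SE 0.18, adjusted p = 0.00596), and that call was lost with library totals (log2 -0.34, adjusted p = 0.239). KO was 1.85-fold lower than KI (log2 -0.89, SE 0.14, adjusted p = 9.48e-05), which held under every alternative. In KI against WT the log2 fold change was 0.18 (SE 0.17, adjusted p = 0.432).

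*Dnmt3b*, the other de novo enzyme, was near the limit of the counts, with 16 to 33 reads per library in KO, 16 to 32 in WT and 18 to 57 in KI. Its mean level was 0.70 ± 0.24 CPM in KO (SD, n = 4), 0.87 ± 0.23 CPM in WT (SD, n = 3) and 1.08 ± 0.42 CPM in KI (SD, n = 4). The groups overlapped, and the log2 fold changes of -0.35 (KO against WT, SE 0.50), 0.30 (KI against WT, SE 0.50) and -0.63 (KO against KI, SE 0.46) did not pass the test. The quotient of *Dnmt3a* to *Dnmt3b* counts overlapped between the groups, at 7.42 to 27.5 in KO, 14.7 to 18.3 in WT and 9.58 to 30.7 in KI. These few reads limit what could be detected for this gene.

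*Tet1* was almost absent outside KI. KO libraries 5 to 8 held 5, 7, 0 and 0 reads, WT libraries 5-6, 7 and 8 held 0, 4 and 0, and KI libraries 5 to 8 held 41, 24, 79 and 34. The KI libraries thus lay above all others, at 0.66 to 2.07 CPM, against at most 0.21 CPM in KO and 0.16 CPM in WT. The gene entered the test through its KI counts, so that a call could go in no other direction, and the p-values are given as a description only. The fitted log2 fold change was 4.42 in KI against WT (SE 0.95, adjusted p = 0.00267) and -3.82 in KO against KI (SE 0.79, adjusted p = 0.000799), and KO against WT was not tested because of the low counts. The size of the KI to WT difference depended on a handful of reads, since it ran from 3.82 to 8.32 when single libraries were left out and was 1.01 in limma on log2(CPM + 1). Even in KI, *Tet1* was the member with the lowest level per transcript length.

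*Tet2* was not called in any comparison. Its level was 7.99, 11.9, 13.3 and 11.7 CPM in KO, 8.92, 16.4 and 16.6 CPM in WT and 11.6, 6.98, 11 and 10.6 CPM in KI, and the groups overlapped. The log2 fold change was -0.34 in KO (SE 0.24, adjusted p = 0.257) and -0.48 in KI (SE 0.24, adjusted p = 0.123) against WT, and 0.17 between KO and KI. WT library 5-6 was the lowest in WT, and without it both comparisons with WT passed the test (log2 -0.55 with adjusted p = 0.0459, and -0.71 with adjusted p = 0.0198).

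*Tet3*, by contrast, had 21.5, 30, 28.8 and 34.1 CPM in KO, 13.9, 23.4 and 29.2 CPM in WT and 24.3, 20.9, 23.0 and 26.8 CPM in KI. The groups overlapped here too, and the log2 fold changes were 0.34 in KO (SE 0.24, adjusted p = 0.245) and 0.09 in KI (SE 0.21, adjusted p = 0.754) against WT. Without WT library 8 the KO value rose to 0.62 and passed the test (adjusted p = 0.0288), and without KO library 5 the KO to KI difference passed (log2 0.38, adjusted p = 0.0111, against 0.27 and 0.0998 with all libraries). The quotient of *Tet3* to *Tet2* counts was 2.16 to 2.91 in KO, 1.43 to 1.76 in WT and 2.09 to 3.00 in KI, with no overlap between WT and the edited lines. It was 1.62-fold higher in KO than in WT and 1.52-fold higher in KI than in WT (exact permutation p = 0.057 for each, the smallest possible, adjusted 0.114).

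The *Tet* genes and *Dnmt3a* have long transcripts, of 9179 to 14369 bases, and transcript length moved with the library. In WT library 5-6, 1731 genes under 1500 bases stood a median of 0.44 (log2) above their mean over the 11 libraries and 1630 genes over 6000 bases at -0.34 from it. The corresponding values were 0.20 and -0.11 in WT library 7, -0.03 and 0.13 in WT library 8, and -0.22 and 0.20 in KO library 8. With this trend removed, an alternative chosen after seeing the data, *Tet2* was lower in KO (log2 -0.50, adjusted p = 0.0333) and in KI (log2 -0.61, adjusted p = 0.0199) than in WT. *Suz12* was then also lower in KI than in WT (log2 -0.36, adjusted p = 0.0313), and the log2 fold change of *Dnmt3a* in KO against WT was -0.92. The calls of *Dnmt1*, *Uhrf1* and *Ezh2* against WT held with the trend removed.

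**Figure D3:**
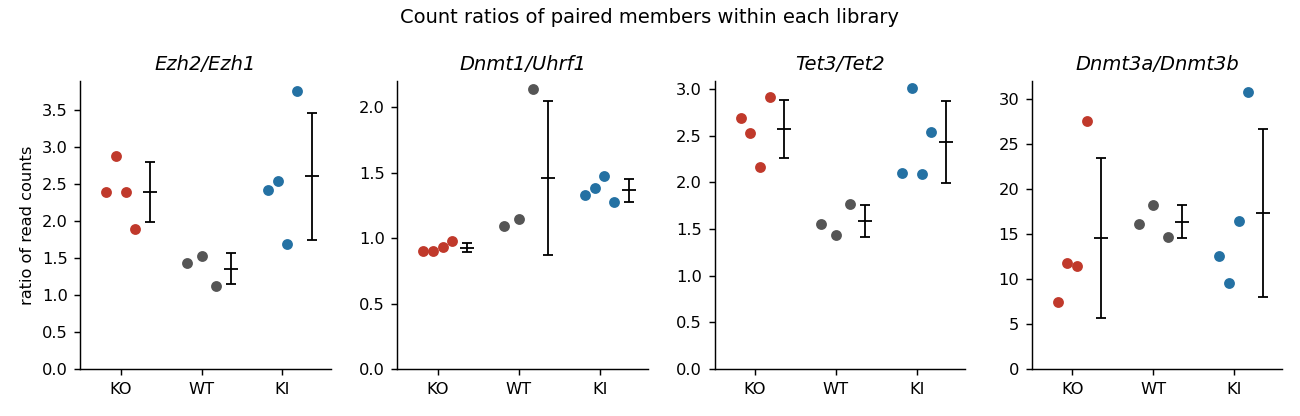
Quotient of the raw read counts of member pairs within each library, on linear axes from 0, with the mean and SD of KO (n = 4), WT (n = 3) and KI (n = 4). Ezh2/Ezh1 and Tet3/Tet2 are lower in all 3 WT libraries than in all KO and KI libraries, Dnmt1/Uhrf1 is below 1 in the 4 KO libraries only, and Dnmt3a/Dnmt3b overlaps between the groups.

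Levels of different genes were compared per kilobase of the longest annotated transcript. In WT the order was *Suz12* (37.1 ± 3.08 CPM per kb, SD, n = 3), *Ezh2* (8.88 ± 0.63), *Uhrf1* (5.94 ± 1.03), *Dnmt1* (5.08 ± 1.14) and *Ezh1* (4.41 ± 0.83). *Uhrf1*, *Dnmt1* and *Ezh1* each overlapped the others between WT libraries, while *Suz12* and *Ezh2* stood apart. KI had the same first 4, with 31.3, 19.6, 15.6 and 13.0 CPM per kb. There, the KI libraries of *Ezh2* and *Uhrf1*, and of *Uhrf1* and *Dnmt1*, overlapped. In KO, *Uhrf1* stood first at 25.4 ± 4.12 CPM per kb, ahead of *Suz12* (20.4 ± 0.81), *Ezh2* (15.7 ± 1.52) and *Dnmt1* (14.4 ± 2.43), where the KO libraries of *Uhrf1* and *Suz12*, and of *Ezh2* and *Dnmt1*, overlapped. *Tet3*, *Tet2*, *Dnmt3a*, *Dnmt3b* and *Tet1* stayed at or under 2.62 CPM per kb in each group mean.

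The genes whose log2 CPM followed each called member most closely over the 11 libraries, among 12650 annotated genes, were found by Pearson's r, as a description, since the libraries fall into 3 groups and share their scaling. For *Dnmt1* they were *Xpo5*, *Ccnd1* and *Ruvbl1* (r = 0.994, 0.993 and 0.988), and for *Uhrf1* they were *Grwd1*, *Pold1* and *Pus7* (0.987, 0.987 and 0.984). For *Ezh2* they were *Kansl2*, *Tfdp1* and *Lyar* (0.983, 0.982 and 0.981). For *Suz12* they were *Rab18*, *Rhob* and *Ppp3r1* (0.991, 0.987 and 0.985), for *Dnmt3a* *Syne1*, *Zfp704* and *Erlin2* (0.977, 0.973 and 0.972), and for *Tet1* *Pcdhb18*, *Adgrg7* and *Tacc1* (0.954, 0.951 and 0.939). Those of *Tet2* (*Zbed6*, *Rapgef2* and *Sde2*), *Tet3* (*Mtmr4*, *Sh3d19* and *Ino80d*), *Ezh1* (*Suclg2*, *Zdhhc6* and *Ppfibp1*) and *Dnmt3b* (*Cnih2*, *Ttbk1* and *Coq10a*) had r of 0.796 to 0.955.

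Genes of DNA replication and cell division moved with *Dnmt1*, *Uhrf1* and *Ezh2*. Of a list of 24 proliferation genes, 22 were higher and 1 lower in KO against WT (median log2 1.39), and 23 were higher and 1 lower in KI against WT (median 1.34), where 26.7% and 21.2% of all genes were higher. The summed level of the list was 2175 to 2447 CPM in KO, 824 to 1027 CPM in WT and 1928 to 2317 CPM in KI. *Mki67*, the marker of cycling cells, stood at 352 ± 49.9 CPM in KO (SD, n = 4), 56.2 ± 3.40 CPM in WT (SD, n = 3) and 154 ± 27.6 CPM in KI (SD, n = 4). Its log2 fold change was 2.63 in KO (SE 0.15, adjusted p = 3.80e-07) and 1.45 in KI (SE 0.16, adjusted p = 2.94e-05). *Ccne1*, the cyclin of S phase entry, rose by 3.09 in KO and 2.32 in KI, and *Mcm5*, of the replicative helicase, by 2.36 and 2.64. *Mcm2*, of the same helicase, rose by 1.98 and 2.17, and *Plk1*, a mitotic kinase, by 2.59 and 1.40. The exception in both lines was *E2f1*, an activator of S phase genes, which was lower (log2 -0.39 and -0.76). In KO against KI, 9 of the 24 were higher, 5 lower and 10 not called (median log2 -0.11). The part of proliferation in the levels of the 3 members was not tested.

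**Figure D4:**
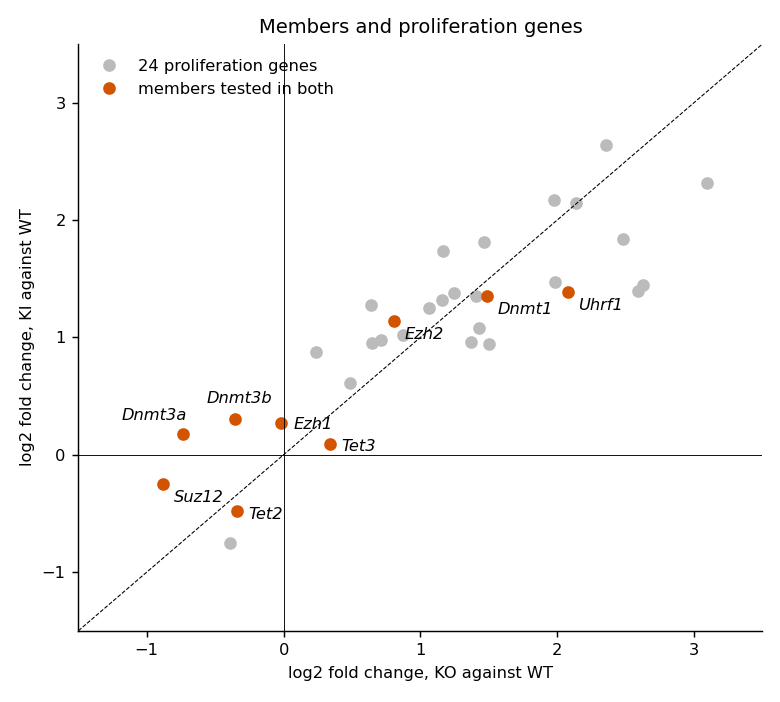
Log2 fold change in KO against WT (horizontal axis) and in KI against WT (vertical axis) of 24 proliferation genes (grey) and of the 9 members tested in both comparisons (orange); the dashed line marks equal values and both comparisons use the same WT libraries. Dnmt1, Uhrf1 and Ezh2 lie among the proliferation genes, while the other members lie near or below 0 on at least 1 axis.

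Of 16 genes of the E2F and pocket protein families, all of them tested, 9 were higher and 3 lower in each comparison with WT, and 8 were higher and 2 lower in KO against KI. *E2f8*, an atypical repressor of the family, rose by 2.86 in KO and 1.95 in KI, *Mybl2*, of the complex that drives mitotic genes, by 2.69 and 2.12, and *Rbl1*, a pocket protein, by 1.88 and 1.63. *E2f2* was called in KO (log2 3.77, adjusted p = 3.37e-05) and not in KI (log2 1.17, adjusted p = 0.116). *E2f5* and *Rb1* were lower in KO (log2 -1.38 and -0.32), and *Rbl2* and *Rb1* in KI (log2 -0.67 and -0.42).

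Proteins that act beside the TET enzymes were taken from a list of 17 genes of active demethylation and base excision repair. In KO against WT, 7 were higher and 5 lower, in KI against WT, 7 were higher and 2 lower, and in KO against KI, 2 were higher and 6 lower. Without KO library 5 or KO library 7 the 12 KO calls fell to 7. *Idh1*, which makes the 2-oxoglutarate that TET enzymes use, was lower in both lines, at 272 ± 40.4 CPM in KO (SD, n = 4), 829 ± 207 CPM in WT (SD, n = 3) and 444 ± 68.3 CPM in KI (SD, n = 4). Its log2 fold change was -1.63 in KO (adjusted p = 4.61e-05) and -0.90 in KI (adjusted p = 0.00244). *Idh3a*, a subunit of the NAD-dependent enzyme, was higher (log2 0.70 and 1.15). *Neil3*, a DNA glycosylase, and *Xrcc1* and *Parp1*, of strand break repair, were higher in both, by 1.28, 1.18 and 1.03 in KO and 1.49, 0.80 and 0.86 in KI. *D2hgdh*, which clears 2-hydroxyglutarate, was lower in KO (log2 -0.82, adjusted p = 0.000985).

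Of 10 readers of methylated CpG, 2 were higher and 5 lower in KO against WT, 3 were higher and 1 lower in KI against WT, and 1 was higher and 4 lower in KO against KI. *Zbtb38*, a zinc finger reader, moved in opposite directions, with 17.2 ± 2.18 CPM in KO (SD, n = 4), 34.1 ± 5.89 CPM in WT (SD, n = 3) and 58.6 ± 6.65 CPM in KI (SD, n = 4). Its log2 fold change was -1.01 in KO (adjusted p = 0.000342), 0.78 in KI (adjusted p = 0.00177) and -1.77 in KO against KI (adjusted p = 9.59e-09). Its relative *Zbtb4* was lower in both lines (log2 -1.15 and -0.41), *Zbtb33* was lower in KO (log2 -0.65), and *Mbd4* and *Mbd3* were higher in both (log2 0.92 and 0.58 in KO, 0.91 and 0.65 in KI).

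S-adenosylmethionine is the methyl donor of both DNMT and EZH enzymes. Of 14 genes of its cycle, 12 were tested, with 6 higher and 3 lower in KO, 4 higher and 4 lower in KI against WT, and 5 higher and 2 lower in KO against KI. The 8 KI calls fell to 4 without WT library 5-6 or WT library 7, and to 5 without KI library 5, 6 or 7. *Mat1a*, the synthetase of adult liver, had 14, 16, 17 and 10 counts in KO, 134, 129 and 165 in WT and 0, 3, 22 and 0 in KI, and was lower in both lines (adjusted p = 4.81e-06 and 0.000232). The log2 fold change was -3.84 in KO. None is given for KI, where library 7 held 22 of the counts and 3 remained without it. In KI against WT the gene passed the filter on low counts through WT alone. It could only be called lower there, so that p-value is a description only and adds nothing to the 4 lower calls. *Ahcy*, which removes the inhibitory product of methylation, was also lower in both (log2 -0.72 and -1.20). *Gnmt*, a glycine methyltransferase of liver, was higher in KO (log2 2.61, adjusted p = 1.52e-05) and lower in KI (log2 -1.44, adjusted p = 0.0133). *Mtr*, methionine synthase, was higher in both (log2 1.36 and 0.73).

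Of 9 genes of histone H3 lysine 9 methylation and heterochromatin, 5 were higher and 1 lower in KO, 4 were higher and 0 lower in KI by edgeR (0 lower also at an unadjusted p under 0.05 and by DESeq2 or limma), and 2 were higher and 3 lower in KO against KI. The last count of 5 fell to 3 without KO library 7 or in 1 fit over the 3 groups, and to 2 without KI library 5. The methyltransferase genes *Suv39h2*, *Suv39h1* and *Setdb1* were higher in both lines, by 1.69, 1.07 and 0.77 in KO and 1.54, 1.39 and 1.10 in KI on the log2 scale. *Cbx1*, a reader of the mark, was lower in KO (log2 -0.73, adjusted p = 0.000984).

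The genes that these enzymes are known to silence were examined as a readout of RNA only. Of 25 germline genes known to be silenced by promoter methylation, 16 had at most 3 counts in every library, 1 was tested in KO against WT and in KO against KI, 0 were tested in KI against WT, and 0 were called by edgeR, at an unadjusted p under 0.05, by DESeq2 or by limma. Of 39 *Hox* genes, classical Polycomb targets, 20 had at most 3 counts in every library. In KO against WT 7 were tested and 6 were lower, and in KO against KI 8 were tested and 7 were lower. The genes called lower were at or near 0 in KO and passed the filter on low counts through WT or KI alone, so they could only be called lower and their number is no evidence about the family. In KI against WT 9 were tested and 2 were higher (1 when any single library other than WT library 8 was left out, and with the replicate block, 3 without WT library 8 or with library totals, and 4 without a filter on low counts). The summed *Hox* level was 1.86 to 3.196 CPM in KO, 36.4 to 41.2 CPM in WT and 33.5 to 42.9 CPM in KI.

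The *Hox* genes with lower calls lay mostly in the *Hoxb* cluster. *Hoxb13* had 0, 8, 0 and 0 counts in the KO libraries, 506 to 592 in WT and 599 to 791 in KI (adjusted p = 8.51e-07 in KO against WT). The gene passed the filter on low counts through WT alone in that comparison, so its p-value is a description only. No fold is given, because the KO reads all came from library 6. *Hoxb4* had 0 counts in each KO library, 75, 108 and 136 in WT and 119 to 154 in KI, and with 3 counts per library as the floor was at least 46.4-fold lower in KO than in WT and at least 42.1-fold lower than in KI. *Hoxb6* was likewise at 0 in KO, at least 13.7-fold lower than in WT, and was higher in KI than in WT (log2 1.13, adjusted p = 0.0165).

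Of 32 other Polycomb targets, 12 were tested in each comparison, with 1 higher and 5 lower in KO against WT, 4 higher and 1 lower in KI against WT, and 2 higher and 8 lower in KO against KI. Here too, genes near 0 in 1 group passed the filter through the other group. *Cdkn2a*, the cell cycle inhibitor locus that PRC2 represses in many cell types, had 46, 79, 31 and 65 counts in KO, 994, 860 and 950 in WT and 2117, 2490, 2160 and 1814 in KI. It was lower in KO (log2 -4.65, SE 0.26, adjusted p = 3.14e-07) and higher in KI (log2 0.67, SE 0.15, adjusted p = 0.00307). The developmental factor *Pax2* was lower in KO (log2 -4.18) and not called in KI (log2 -0.12). *Pax6* was higher in KO (log2 2.03) and lower in KI (log2 -1.91). By contrast, *Pax3*, *Pax8* and *Cdkn2b* were higher in KI than in WT (log2 3.48, 2.32 and 0.78). These 3 genes were lower in KO than in KI (log2 -2.32, -1.99 and -0.93). The size of the *Pax3* difference from WT rests on few reads, with 0, 6 and 13 counts in WT and 77 to 130 in KI. In KI against WT the gene passed the filter on low counts through KI alone. It could only be called higher there, so it adds nothing to the 4 higher calls. No chromatin mark or DNA methylation was measured, and the part of the members in these levels was not tested.

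**Figure D5:**
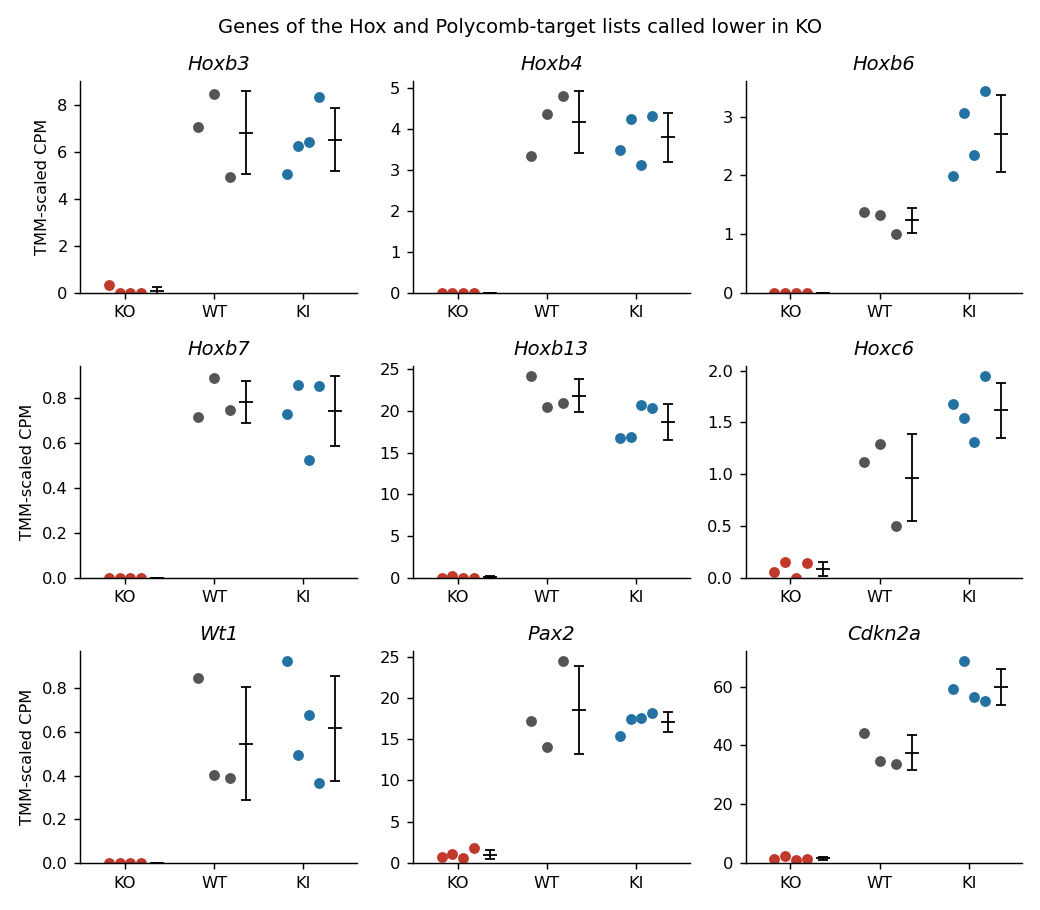
Level of 9 Hox and other Polycomb-target genes in each library, in TMM-scaled CPM on linear axes from 0, with the mean and SD of KO (n = 4), WT (n = 3) and KI (n = 4). The genes were picked because they were called lower in KO, so low KO points follow from that choice. The KO points lie at or near 0 in each panel and below all WT and KI points. Pax6, of the same lists but higher in KO, is not shown.

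Markers of the labelled cell type were present, since *Alb* and *Hnf4a* were found in each library and 14 of 15 hepatocyte markers were tested in KO against WT. *Cyp2e1*, a cytochrome of adult hepatocytes, was at 0 counts in every library. They did not move as a block. Of the 14, 7 were higher and 5 lower in KO against WT, of 13 tested in KI 5 were higher and 4 lower, and in KO against KI 7 were higher and 6 lower. The summed level was 9921 to 11820 CPM in KO, 7804 to 9837 CPM in WT and 8719 to 10290 CPM in KI. *Alb* was higher in KO and lower in KI than in WT (log2 2.99 and -1.06), while *Afp*, the fetal counterpart, was higher in both (log2 1.11 and 2.02).

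Markers of other liver cells were also examined. Of 6 cholangiocyte markers, 5 were tested, with 1 higher and 4 lower in KO, 1 lower in KI, and 1 higher and 3 lower in KO against KI, and their sum was 1374 to 1530 CPM in KO, 3048 to 4417 CPM in WT and 2643 to 3129 CPM in KI. The defining marker *Epcam* was at 0 in every library, and *Spp1* and *Krt7* were lower in KO (log2 -3.38 and -3.40). Of 7 macrophage and leukocyte markers, 3 were tested, 2 were lower in KO, 1 was lower in KI and 1 was lower in KO against KI, with sums of 1.95 to 2.69 CPM in KO, 6.73 to 9.56 CPM in WT and 3.25 to 6.66 CPM in KI. Among them *Adgre1*, *Clec4f* and *Marco* were at 0 throughout. Of 8 stellate and fibroblast markers 1 was tested and not called (*Lrat*, *Col1a2* and *Col3a1* were at 0), and of 6 endothelial markers none was tested, with sums of at most 1.86 and 0.42 CPM in any library. The part of these markers in the members' levels was not tested.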

How the data were processed

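Polyadenylated RNA of 11 AML12 libraries (4 KO, 3 WT and 4 KI) had been sequenced. The authors deposited a table of read counts per gene, not normalized, made by their sequencing provider. The submitters' processing notes name HISAT2, TopHat2, Bowtie2 and StringTie, and the genome build and counting tool are not given in the sources used here. Of 26472 lines, 26462 were used, and the other 10 had damaged annotation fields. The used lines covered 23502 annotated and 2960 newly assembled entries. Counts were summed by gene name, which gave 24849 genes, 1131 of them from several entries. The table also holds 11 columns of FPKM values, whose decimal separators are damaged, and the adjusted p-values, log2 fold changes and regulation flags of the authors' own DESeq2 comparisons, and neither was used.

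Groups came from the titles. Each pair of groups was fitted separately with edgeR 4.0.16 in R 4.3.3 (filterByExpr, TMM, robust quasi-likelihood test), and called at an adjusted p under 0.05 over all genes tested. CPM levels came from 1 TMM scaling over the 11 libraries. Quotients of 2 members were tested with exact permutation tests in scipy 1.17.1. Total counts were 30380360 to 38422243 in KO, 29840366 to 30364098 in WT and 32360709 to 35335070 in KI. No 2 libraries of a group agreed within sampling noise. The fits were tested on simulated data. DESeq2 1.42.0, limma 3.58.1, other scalings, filters and fits were tried as alternatives.

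The members and the 18 gene lists, with marker lists among them, were chosen with earlier results of these data known. All members and *Txndc5* are named, and from each list up to 3 called genes with the largest rise and 3 with the largest fall in KO or KI against WT, with a mean of at least 1 CPM in a group. Genes outside that rule were named after their values were seen, and a few that it names are not reported here. Same-numbered libraries did not deviate together throughout (r of -0.21 to 0.25 over 8 pairs), so numbers were not taken to pair them. Between KO and WT, r was 0.25 for library 8 and 0.007 for library 7. WT library 5-6 was left out of the 8 pairs, and its r was 0.192 with KO library 5 and -0.004 with KO library 6. A replicate block was fitted as an alternative. Transcript lengths came from GENCODE and promoter sequences from RefSeq (GRCm38.p6).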

Additional observations from a re-analysis of the deposited data

Results flagged for a closer look

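In 20 sets of 4 libraries (10 members in KO and in KI), the gap of the highest or lowest library to its neighbour exceeded Dixon's 95% limit in 2, where chance gives about 1. For *Ezh2* in KO, library 6 stood apart from the other 3 by 0.948 of the whole range, at 50.2 CPM against 41.5 to 41.9 CPM. For *Ezh1* in KO, library 8 stood apart by 0.984 of the range, at 22.1 CPM against 17.4 CPM in the other 3.

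The KO and KI libraries differed for 5 members, by the edgeR test of KO against KI. The edit and the line or clone that carries it cannot be told apart. The log2 difference was 0.71 for *Uhrf1*, which was higher than WT in both lines. It was -0.308 for *Ezh2*, also higher than WT in both. It was -0.611 for *Suz12* and -0.887 for *Dnmt3a*, which were lower than WT in KO and not called in KI. It was -3.817 for *Tet1*, on 0 to 7 reads per KO library and 24 to 79 per KI library, and the gene passed the filter through KI alone.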

How the results depend on the processing

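Of 532 recomputed fold changes of members, 509 kept their sign and their side of the threshold, 2 lost their call (*Dnmt3a* in KO against WT and *Ezh2* in KO against KI, both with library totals), 9 gained one and 12 uncalled values changed sign. With library totals, 1 member was lower in KO than in WT, and the log2 fold changes there were 0.025 for *Dnmt3b*, 0.054 for *Tet2* and 0.376 for *Ezh1*, while *Suz12* in KI was 0.079. *Ezh1* in KO was 0.002 in 1 fit over the 3 groups, 0.028 with the replicate block and -0.113 to 0.173 without single libraries. With the length trend removed, chosen after seeing the data as was a GC trend, 2 members were lower in KI than in WT and *Tet3* in KI was -0.006. Without single libraries, 0 to 1 members were lower in KI than in WT (1 without WT 5-6), 1 to 2 were higher in KO than in KI (2 without KO 5), and *Tet3* in KI ran from -0.15 to 0.346. The log2 quotients ran from -0.27 to 0.114 for *Ezh2* to *Ezh1* (KO against KI), from -0.377 to 0.184 and from -0.655 to 0.034 for *Dnmt3a* to *Dnmt3b* (KI against WT, KO against KI) and from -0.201 to 0.282 for *Dnmt1* to *Uhrf1* (KI against WT). With the replicate block, 6, 4 and 5 members were called in KO against WT, KI against WT and KO against KI, and 8183, 4891 and 6453 genes in all. *Tet3* in KO against WT then passed (0.48, adjusted p = 0.0197), and 0 of 8 KO and KI libraries correlated best with their own number. Of 660 recomputed list counts, 39 moved by over 1.5 times, and with the length trend removed 8 of the PRC2 list were called in KO. Depth limits *Tet1* and *Dnmt3b* most.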
